A study of Mus musculus with 20 samples.

Results

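Expression of 29 genes of cholesterol synthesis and sterol regulation was followed in 20 mouse libraries of total RNA, prepared with a stranded, polyA-selected kit. The genes were taken from a list of sterol synthesis, SREBP and LXR pathway genes. All 29 were found among the 25700 gene identifiers counted in each library, and all 29 were among the 15430 genes with enough counts to be tested. They comprise 18 enzymes of the synthesis pathway (7 of the mevalonate steps, 3 that make squalene and lanosterol, 8 that act after lanosterol), 5 genes of the SREBP machinery, 2 further SREBP-related genes of lipid handling (Stard4 and Lpin1) and 4 genes of the LXR arm.

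The libraries fell into 4 groups of 5: Control and Oxalate, both labelled untreated, and Control_late and Oxalate_late, both labelled alkali therapy. The series describes mice with crystal nephropathy, a kidney disease in which crystals injure the tubules, and names bicarbonate as the alkali. The labels used here give no strain, age, sex, tissue, dose or time, do not say what "late" means, and do not say whether the 5 libraries of a group came from separate animals. The p-values below therefore measure the spread between libraries, part of which may be technical.

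Cells make cholesterol from acetyl-CoA through mevalonate, farnesyl diphosphate, squalene and lanosterol. When sterols in the endoplasmic reticulum run low, SCAP escorts the SREBP factors to the Golgi, where they are cut and released to switch on nearly every enzyme of the pathway; INSIG proteins hold SCAP back when sterols are plentiful. Oxysterols, which form when sterols accumulate, activate the LXR receptors, which raise genes of cholesterol efflux such as Abca1. In the kidney the proximal tubule, the most abundant segment, takes up and handles much lipid.

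Total counts ran from 25547840 to 39550689 per library. Levels are given as CPM, read counts scaled to library size with TMM normalization, and a gene was called when its edgeR quasi-likelihood test gave a Benjamini-Hochberg adjusted p under 0.05 over all 15430 genes. Kidney tubule markers were abundant: the 12 proximal tubule markers summed to 24932 to 29797 CPM in the 10 libraries of both control groups, to 7910 to 19773 in Oxalate and to 11156 to 25155 in Oxalate_late. The 14 macrophage and monocyte markers summed to 133 to 201 CPM in the control groups, 861 to 4235 in Oxalate and 315 to 1131 in Oxalate_late, and all 14 were called higher in Oxalate than in Control. The 8 tubular injury markers were all called higher in both oxalate comparisons. In such bulk libraries, fewer cells of a type cannot be told apart from less RNA per cell. Adipoq, a fat cell gene, exceeded 1 CPM in 6 libraries (Control 26 and 9, Control_late 1 and 4, Oxalate 32, Oxalate_late 33), and the 6 fat cell markers summed to as much as 231 CPM there, so counts of calls are also given without these 6. Oxalate_late 2 stood nearest to the controls, with the highest proximal tubule sum (25155 CPM) and the lowest macrophage (315 CPM) and injury (1620 CPM) sums of the 10 oxalate libraries.

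In Control libraries Hmgcs1, which makes HMG-CoA, had the highest level per exon length of the 29 genes, at 163 ± 8.63 CPM per kilobase (SD, n = 5). Cyp51, the lanosterol demethylase, followed with 59.3 ± 5.72 CPM per kilobase, and Acat2, the thiolase that starts the pathway, with 38.0 ± 1.80. The next enzymes in that order, Ebp at 35.3 ± 3.36 and Mvd at 32.04 ± 2.98 CPM per kilobase, lay within their spread of one another. At the lower end stood Abca1 at 3.57 ± 0.585 and Lss, the lanosterol synthase, at 2.21 ± 0.172 CPM per kilobase. Srebf2, whose product chiefly drives the synthesis genes, had 12.3 ± 1.77 CPM per kilobase and Srebf1 6.93 ± 1.82. Lengths were those of the union of annotated exons, so a gene with many unused exons reads low on this scale.

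**Figure D1:**
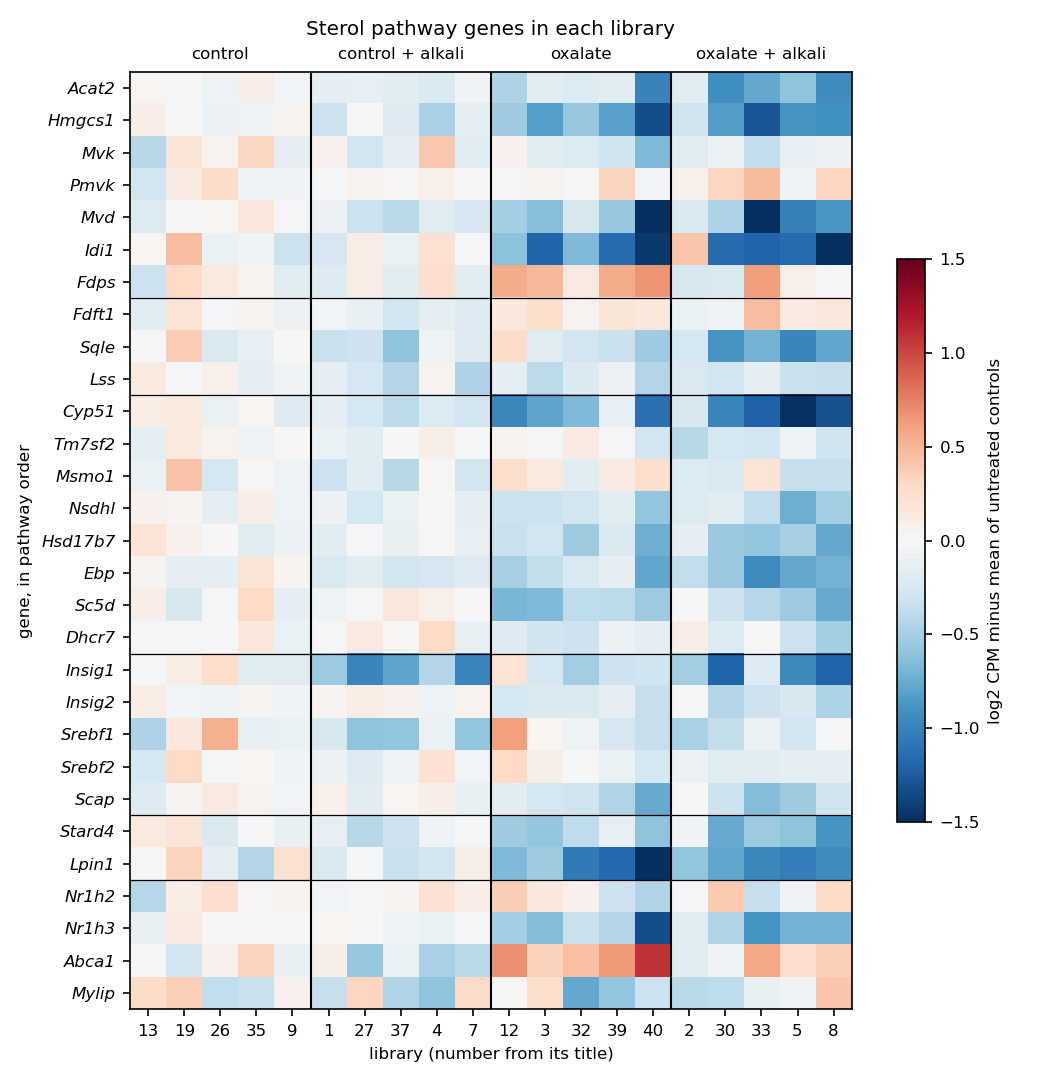
Heat map of the 29 genes (rows, in pathway order) in the 20 libraries (columns, by group), coloured by log2 CPM minus the mean of the Control libraries. Hmgcs1, Idi1, Cyp51, Lpin1 and Nr1h3 are blue in most oxalate libraries, Abca1 is red in Oxalate, and Oxalate_late 2 is paler than the other 4 libraries of its group.

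The first comparison asked how the pathway differed between oxalate and control mice without alkali. Of the 29 genes, 15 were called lower and 2 higher in Oxalate than in Control, where 23.1% of all tested genes were called lower and 26.4% higher. The genes called lower were Acat2, Hmgcs1, Mvd, Idi1, Lss, Cyp51, Nsdhl, Hsd17b7, Ebp and Sc5d among the enzymes, and Insig2, Scap, Stard4, Lpin1 and Nr1h3 among the others. Fdps and Abca1 were called higher. In either direction 17 of 29 were called, beside 49.4% of all tested genes, and the same 17 had an unadjusted p under 0.05, beside 56.0%. The median log2 fold change over the 29 genes was -0.26, beside -0.00043 over all tested genes. In 11 genes every Oxalate library lay below every Control library, and in 1, Abca1, every one lay above; over all tested genes these shares were 15.4% and 18.5%.

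On alkali, Oxalate_late against Control_late, 16 of the 29 were called lower and 2 higher, where 17.1% of all tested genes were called lower and 23.4% higher. In either direction 18 of 29 were called, beside 40.4% of all tested genes, and 19 had an unadjusted p under 0.05, beside 50.6%. The median was -0.27, beside 0.024 over all tested genes. Of the genes called lower, 14 were those of the comparison without alkali, all but Lss, and Sqle and Tm7sf2 were added. Abca1 was higher in both comparisons and Fdft1 was called higher here. The groups were fully apart in 3 genes, all lower (Ebp, Lpin1 and Nr1h3), and in 0 higher, beside 5.51% and 10.8% of all tested genes. The 9 genes called in neither comparison were Mvk, Pmvk, Msmo1, Dhcr7, Insig1, Srebf1, Srebf2, Nr1h2 and Mylip.

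The count without alkali held when single libraries or the libraries with Adipoq were left out, whereas the count on alkali did not. Without the 6 Adipoq libraries the same 15 genes were called lower and 2 higher without alkali, but only 4 lower (Hmgcs1, Ebp, Insig2 and Lpin1) and 0 higher on alkali, where 3 Control_late and 4 Oxalate_late libraries remained. Over all tested genes the share called lower on alkali was then 6.13%, down from 17.1%, and the share called higher 14.5%, down from 23.4%; without alkali the shares were 25.9% and 25.5%. Leaving out 1 library at a time gave 13 to 15 lower calls without alkali and 9 to 17 on alkali. The count on alkali was 9 without Control_late 4 or without Oxalate_late 33, and 10 without Control_late 1, Oxalate_late 5 or Oxalate_late 8. Over all tested genes the share called lower was 17.1% with all libraries and stayed near it, at 16.5%, without Control_late 4. The share fell to 10.2% without Oxalate_late 33, 12.7% without Control_late 1 or Oxalate_late 5, and 9.91% without Oxalate_late 8. Scaling by total counts instead of TMM raised the median log2 fold change of all genes by 0.30 without alkali and 0.21 on alkali. It gave 7 higher and 5 lower members without alkali and 3 higher and 6 lower on alkali. Over all tested genes it called 48.6% higher and 8.48% lower without alkali, and 36.6% and 6.18% on alkali. Of all called genes 85.1% and 85.6% were then higher. Without alkali 10 members turned upward under it (Mvk, Sqle, Lss, Tm7sf2, Dhcr7, Insig1, Insig2, Srebf1, Nr1h2 and Mylip), and on alkali 4 did (Mvk, Lss, Insig1 and Srebf2). Under both scalings and in both comparisons Hmgcs1, Cyp51, Lpin1 and Nr1h3 were called lower and Abca1 higher.

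**Figure D2:**
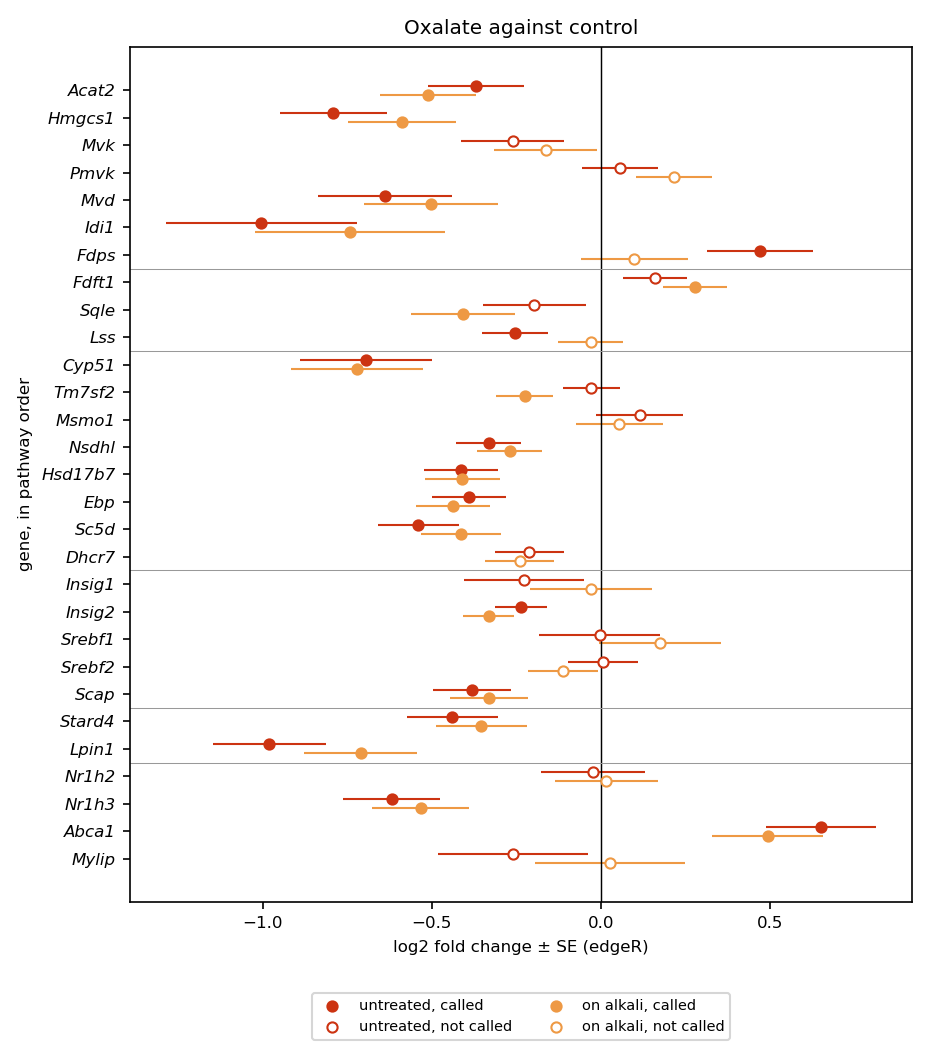
Log2 fold change ± SE (edgeR, n = 5 per group) of the 29 genes for oxalate against control, without alkali (red) and on alkali (orange), with filled points for genes called at an adjusted p under 0.05. Idi1 (-1.0 and -0.74), Lpin1 (-0.98 and -0.71) and Cyp51 (-0.69 and -0.72) lie far to the left and Abca1 (0.65 and 0.49) farthest to the right.

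Values of single libraries are listed in the order 13, 19, 26, 35 and 9 for Control, 1, 27, 37, 4 and 7 for Control_late, 12, 3, 32, 39 and 40 for Oxalate, and 2, 30, 33, 5 and 8 for Oxalate_late. Among the mevalonate enzymes, 4 of 7 were called lower in both comparisons (Acat2, Hmgcs1, Mvd and Idi1) and Fdps was called higher without alkali. Hmgcs1, whose product condenses acetoacetyl-CoA and acetyl-CoA to HMG-CoA, had 798, 752, 702, 714 and 772 CPM in Control and 516, 422, 502, 425 and 297 CPM in Oxalate. Every Oxalate library was below every Control library, and Oxalate 40 was the lowest. The log2 fold change was -0.79 ± 0.16 (SE; edgeR adjusted p = 0.000506). On alkali its levels were 600.0, 748, 653, 535 and 674 CPM in Control_late and 608, 419, 306, 404 and 399 in Oxalate_late, with a log2 fold change of -0.59 ± 0.16 (adjusted p = 0.00829). Here Oxalate_late 2, at 608 CPM, lay inside the Control_late range and the other 4 lay below it.

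Idi1, the isomerase that makes the allylic starter of isoprenoid chains, had 22.2, 30.1, 20.4, 20.8 and 17.4 CPM in Control and 14.3, 9.49, 13.8, 9.79 and 8.003 CPM in Oxalate, again without overlap. Its log2 fold change of -1.0 ± 0.28 was the most negative of the 29 (edgeR adjusted p = 0.00626). In Control_late it had 18.3, 23.6, 20.4, 25.6 and 21.4 CPM and in Oxalate_late 29.1, 9.77, 9.50, 9.83 and 7.48 CPM. All but 1 of the Oxalate_late libraries lay below every Control_late library, and Oxalate_late 2 lay above them all. The log2 fold change on alkali was -0.74 ± 0.28 (adjusted p = 0.0412) and became -1.26 without Oxalate_late 2. The call on alkali was lost in 8 of the 20 fits that left out 1 library (Control_late 27, 37, 4 or 7, or Oxalate_late 30, 33, 5 or 8), with adjusted p up to 0.112.

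Mvd, the decarboxylase that yields isopentenyl diphosphate, had 51.5, 59.8, 60.7, 67.01 and 58.8 CPM in Control and 41.7, 38.2, 50.3, 39.95 and 21.2 CPM in Oxalate. The groups did not overlap, and the log2 fold change was -0.64 ± 0.20 (edgeR adjusted p = 0.0112). On alkali Mvd fell by 0.50 on the log2 scale with an adjusted p of 0.0478, a call kept in only 4 of the 20 leave-one-out fits, those without Oxalate 32 or 40 or Oxalate_late 2 or 30. Acat2 averaged 74.97 ± 16.5 CPM (SD, n = 5) in Oxalate against 96.8 ± 4.59 in Control, a log2 fold change of -0.37 ± 0.14 (adjusted p = 0.0366). Without alkali the Acat2 call was lost when any of Control 13, 19 or 35 or Oxalate 12 or 40 was left out (adjusted p up to 0.0763), whereas on alkali (-0.51 ± 0.14, adjusted p = 0.00960) it held in all 20. Acat2 transcripts share 97.7% identity over 1477 bases with Acat3, so reads may have been split between them. Acat3 itself gave 0.082 ± 0.20 (adjusted p = 0.761) without alkali. Acat2 transcripts also share 98.7% identity over 445 bases with Tcp1. Tcp1 was lower without alkali (-0.25 ± 0.080, edgeR adjusted p = 0.0132) and on alkali (-0.25 ± 0.080, 0.0183), and its part in the Acat2 value was not tested.

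Fdps, the farnesyl diphosphate synthase, ran against Acat2, Hmgcs1, Mvd and Idi1 without alkali. It had 12.7, 19.5, 17.6, 16.4 and 14.1 CPM in Control and 23.3, 22.2, 17.4, 23.3 and 25.1 CPM in Oxalate; only Oxalate 32 lay within the Control range. The log2 fold change was 0.47 ± 0.16 (edgeR adjusted p = 0.0174), and the call was lost without Control 13 or Oxalate 40 (adjusted p up to 0.0629). On alkali Fdps had 0.10 (adjusted p = 0.629). Fdps shares 1124 exon bases with the same-strand gene Gm43738, which moved by 0.43 ± 0.11 (adjusted p = 0.00238) without alkali, and near-identical copies of Fdps exist elsewhere in the genome, so the Fdps level is uncertain. The mevalonate kinases were called in neither comparison, with -0.26 and -0.16 for Mvk and 0.056 and 0.22 for Pmvk on the log2 scale, without and on alkali. Mvk had 7.11 to 11.8 CPM in Control and 5.99 to 9.91 in Oxalate, and Pmvk 9.90 to 14.6 and 11.8 to 15.3.

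**Figure D3:**
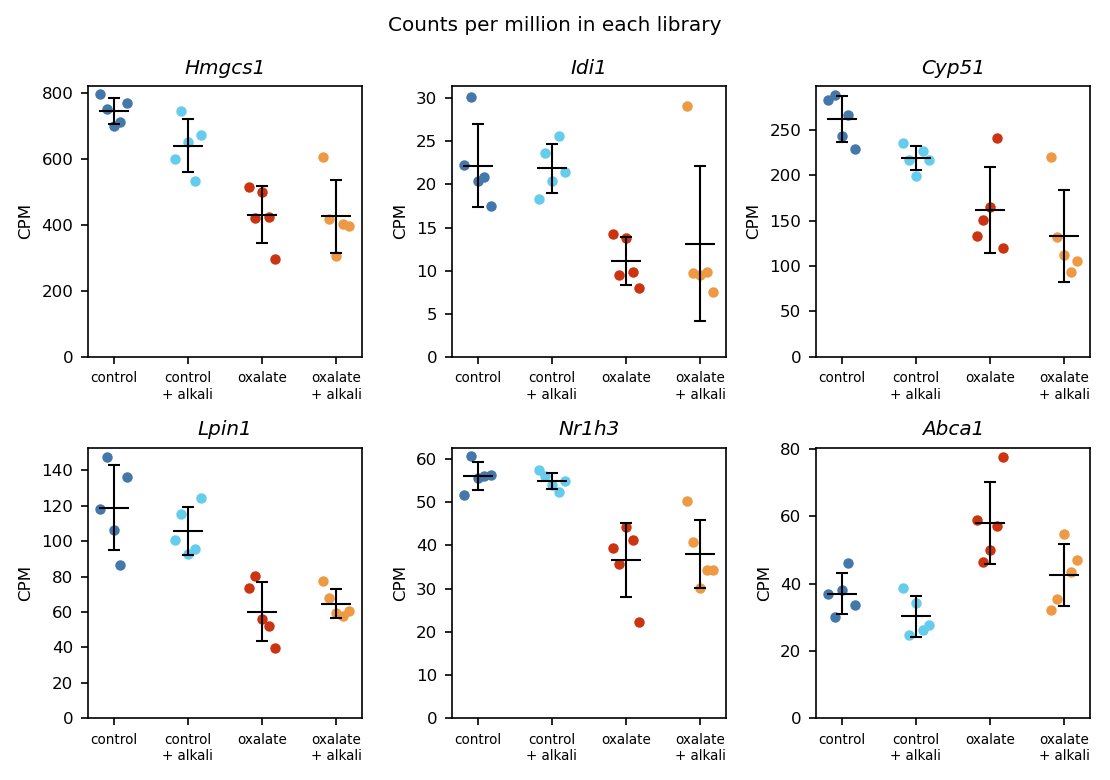
CPM of Hmgcs1, Idi1, Cyp51, Lpin1, Nr1h3 and Abca1 in each library (points) with the group mean and SD (lines, n = 5) in the 4 groups. The Oxalate points of Hmgcs1, Idi1, Lpin1 and Nr1h3 lie below all Control points, and 1 Oxalate_late library stands at 29.1 CPM for Idi1 above the other 4.

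Of the 3 enzymes that lead from farnesyl diphosphate to lanosterol, 1 was called lower without alkali (Lss), and on alkali 1 was called lower (Sqle) and 1 higher (Fdft1). Sqle, the squalene epoxidase and a controlled step of the pathway, had 74.2, 98.7, 64.6, 69.6 and 75.8 CPM in Control and 91.98, 66.6, 62.8, 60.3 and 52.2 CPM in Oxalate. In Control_late it had 59.9, 61.3, 49.9, 71.8 and 66.5 CPM and in Oxalate_late 63.3, 41.1, 46.3, 38.5 and 44.2 CPM. The groups overlapped in both comparisons. Its log2 fold change was -0.20 ± 0.15 without alkali (edgeR adjusted p = 0.294) and -0.41 ± 0.15 on alkali (adjusted p = 0.0397); the latter call was lost without Control_late 1, 27, 4 or 7 or Oxalate_late 30, 33, 5 or 8 (adjusted p up to 0.0995). Lss had 21.6 to 26.3 CPM in Control and 17.5 to 22.4 in Oxalate. It fell by 0.25 without alkali (adjusted p = 0.0360), a call lost without Control 13, 19 or 26 or Oxalate 3 (adjusted p up to 0.0912) and turned to 0.042 under total-count scaling. On alkali Lss had -0.031. Fdft1, the squalene synthase, was called higher on alkali at 0.28 ± 0.10 (adjusted p = 0.0262), with 22.6, 21.5, 19.2, 20.96 and 20.2 CPM in Control_late and 21.7, 21.99, 31.9, 25.1 and 25.99 CPM in Oxalate_late. These groups overlapped, and Oxalate_late 33 was the highest. The Fdft1 call was lost without Control_late 37 or 7 or Oxalate_late 33 or 8, and without Oxalate_late 33 the log2 fold change was 0.18 (adjusted p = 0.1004). Fdft1 shares 774 exon bases with Ctsb on the opposite strand, and the strand setting of the counting is not given in the sources used here. Ctsb had 0.82 ± 0.15 without alkali (adjusted p = 0.000206) and 0.21 ± 0.15 on alkali (adjusted p = 0.258); its part in the Fdft1 value was not tested.

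Of the 8 enzymes after lanosterol, 5 were called lower without alkali (Cyp51, Nsdhl, Hsd17b7, Ebp and Sc5d) and the same 5 and Tm7sf2 on alkali. Cyp51 had 283, 288, 244, 266 and 229 CPM in Control and 133, 151, 165, 240.4 and 120.3 CPM in Oxalate. Only Oxalate 39 reached the Control range, and the log2 fold change was -0.69 ± 0.19 (edgeR adjusted p = 0.00596). On alkali it had 235, 217, 199, 226 and 216 CPM in Control_late against 220.0, 132, 113, 93.6 and 106 in Oxalate_late, where again only 1 library, Oxalate_late 2, reached the control range (-0.72 ± 0.19, adjusted p = 0.00815). Cyp51 shares 166 exon bases with the opposite-strand gene Akap9, which moved by -0.48 ± 0.16 without alkali.

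Sc5d, a sterol desaturase, had 65.1, 51.1, 60.03, 74.2 and 54.97 CPM in Control and 37.7, 38.2, 46.5, 46.2 and 41.4 CPM in Oxalate without overlap (-0.54 ± 0.12, edgeR adjusted p = 0.00107). Ebp, the sterol isomerase, was fully apart in both comparisons. Its levels were 74.1 to 92.7 CPM in Control, 47.2 to 74.05 in Oxalate, 67.4 to 72.9 in Control_late and 42.3 to 62.9 in Oxalate_late, with log2 fold changes of -0.39 ± 0.11 and -0.44 ± 0.11 (adjusted p = 0.00652 and 0.00585). Nsdhl and Hsd17b7, which remove methyl groups from the sterol ring with Msmo1, had 62.2 to 72.9 and 24.6 to 32 CPM in Control and 45.3 to 60.9 and 16.7 to 23.9 in Oxalate. They were lower at -0.33 and -0.41 without alkali (adjusted p = 0.00745 and 0.00415) and at -0.27 and -0.41 on alkali (0.0315 and 0.00803). The call of Nsdhl on alkali was lost without Control_late 1, 37 or 4 or Oxalate_late 33, 5 or 8 (adjusted p up to 0.0924). Msmo1, the methylsterol oxidase, had 26.8 to 43.2 CPM in Control and 28.6 to 38.9 in Oxalate and did not pass in either comparison, with intervals for the log2 fold change of -0.14 to 0.37 and -0.20 to 0.31. Dhcr7, a reductase of the last steps, had 22.2 to 26.4 CPM in Control and 19.04 to 22.2 in Oxalate and gave -0.21 and -0.24 (adjusted p = 0.0919 and 0.0651). It was called lower in both comparisons with no filter on low counts, without alkali in the fit of 2 groups only, and on alkali by limma-voom and without Control_late 7, Oxalate 32, Oxalate 40 or Oxalate_late 2. Tm7sf2, a sterol reductase that shares 532 exon bases with Vps51, had 19.01 to 23.1 CPM in Control and 17.1 to 22.7 in Oxalate. Its log2 fold change was -0.029 without alkali, which became 0.26 and passed the test under total-count scaling, and -0.23 on alkali (adjusted p = 0.0394). That call was lost without Control_late 1, 37, 4 or 7 or Oxalate_late 2, 30, 33 or 8 (adjusted p up to 0.0872).

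Promoter sequences of 25 of the 29 genes were matched in RefSeq (mouse GRCm38.p6), 250 bases before to 50 after each annotated start, 34 promoters in all. Stretches of 5 are shown because 4 belong to enzymes that were lower in oxalate libraries and 1 to Insig1, whose levels in Control and Control_late did not overlap. Each reads on the strand of its gene. Capitals mark, in Hmgcs1, the sterol regulatory element core TCACNCCAC and the NF-Y box CCAAT read as its complement ATTGG; in Cyp51, the related TCACCTCA, a form chosen after the promoters were seen, and CCAAT; in Idi1 and Mvd, CCAAT or ATTGG; and in Insig1 the E-box CACGTG.
Hmgcs1, chr13:119690201-119690320, + strand: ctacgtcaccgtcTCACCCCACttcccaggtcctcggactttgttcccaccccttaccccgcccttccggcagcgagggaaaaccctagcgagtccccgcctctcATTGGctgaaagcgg
Cyp51, chr5:4104708-4104797, - strand: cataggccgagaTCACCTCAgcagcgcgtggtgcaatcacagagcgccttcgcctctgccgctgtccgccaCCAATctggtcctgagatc
Idi1, chr13:8885536-8885605, + strand: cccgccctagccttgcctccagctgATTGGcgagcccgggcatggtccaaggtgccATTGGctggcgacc
Mvd, chr8:122443433-122443502, - strand: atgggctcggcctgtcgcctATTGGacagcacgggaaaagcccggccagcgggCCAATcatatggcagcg
Insig1, chr5:28071282-28071361, + strand: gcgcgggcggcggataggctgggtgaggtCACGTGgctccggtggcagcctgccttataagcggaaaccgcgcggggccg

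Both strands of every promoter were searched, and overlaps between motifs were allowed. CCAAT was found in 20 of the 34 promoters (58.8%), from 19 genes, and in 37.4% of all 32851 promoters. Those genes include Mvk, Pmvk, Msmo1, Dhcr7, Insig1, Srebf1, Srebf2 and Mylip, which were called in neither oxalate comparison. The GC box GGGCGG was found in 25 of the 34 (73.5%) and in 35.7% of all. The E-box was found in 7 of the 34 (20.6%) and in 7.15% of all. TCACNCCAC occurred in Hmgcs1 alone among them, 137 bases before the start, and in 1.24% of all promoters, and TCACCTCA in Cyp51 and Hsd17b7 and in 1.17% of all. The LXR direct repeat, AGGTCA repeated after 4 bases, matched in 0 of the 34 and in 0.0152% of all, which says only that these letters are not in these windows.

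The genes that sense sterols divided by member. Insig2, a retention protein of SCAP, had 53.8, 48.3, 47.5, 51.2 and 47.8 CPM in Control and 41.2, 42.6, 42.9, 45.2 and 39.1 CPM in Oxalate. These groups did not overlap. Insig2 was called lower without alkali at -0.24 ± 0.076 (edgeR adjusted p = 0.0138), which became 0.064 under total-count scaling, and on alkali at -0.33 ± 0.076 (0.00301). Scap, the escort of the SREBP factors, averaged 95.5 ± 7.86 CPM in Control, 73.3 ± 10.9 in Oxalate, 94.5 ± 7.81 in Control_late and 75.1 ± 13.4 in Oxalate_late. Its log2 fold changes were -0.38 ± 0.12 (adjusted p = 0.00985) and -0.33 ± 0.12 (adjusted p = 0.0287); the second call was lost without Control_late 1, 37 or 4 or Oxalate_late 33 or 5 (adjusted p up to 0.0870).

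The transcripts of the SREBP factors themselves were not called in either comparison. Srebf2 had 73.1, 108, 86.8, 89.2 and 83.9 CPM in Control and 108, 92.8, 87.8, 81.6 and 72.9 CPM in Oxalate. In Control_late it had 82.2, 76.7, 82.7, 102 and 84.8 CPM and in Oxalate_late 82.6, 76.9, 78.3, 79 and 79.5 CPM. The groups overlapped in both comparisons. Its log2 fold change lay in an interval of -0.20 to 0.21 without alkali and -0.32 to 0.092 on alkali. Srebf1 had 27.6, 42.4, 54.8, 34.8 and 35.5 CPM in Control and 58.2, 38.6, 36.05, 31.9 and 29.9 CPM in Oxalate. On alkali it had 32.1, 24.9, 25.3, 35.5 and 25.2 CPM in Control_late and 27.2, 29.6, 35.6, 31.4 and 37.6 CPM in Oxalate_late. These groups overlapped too, with intervals for the log2 fold change of -0.36 to 0.35 and -0.18 to 0.53. Under total-count scaling Srebf2 was called higher without alkali. Insig1, which is itself an SREBP target, had log2 fold changes of -0.23 ± 0.18 without alkali (adjusted p = 0.299) and -0.029 ± 0.18 on alkali. Exons shared with opposite-strand genes make 3 further levels uncertain: Scap shares 985 bases with 5830462I19Rik, Idi1 323 with Gm48574 and Srebf1 109 with Rai1. In Control 5830462I19Rik and Gm48574 averaged only 0.022 and 0.017 CPM, too low to be tested, whereas Rai1 averaged 25.6 CPM. Near-identical transcripts of genes absent from the counts also exist. Gm13502 and Gm35570 match Idi1 at 100% over 684 bases and 97.7% over 681. Gm48342 matches Hmgcs1 at 100% over 462 bases, and Gm6781 matches Fdft1 at 97.4% over 1249. Their part in the levels of Idi1, Hmgcs1 and Fdft1 was not tested.

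Stard4 and Lpin1 were called lower in both comparisons. Lpin1, a phosphatidate phosphatase that also acts as a coactivator in lipid metabolism, had 118, 148, 106, 86.4 and 136 CPM in Control and 73.6, 80.5, 55.8, 51.96 and 39.5 CPM in Oxalate. On alkali it had 101, 115, 93.1, 95.7 and 124 CPM in Control_late and 77.4, 68.1, 59.6, 57.5 and 60.6 CPM in Oxalate_late. In both comparisons every oxalate library was below every control library, with log2 fold changes of -0.98 ± 0.17 (edgeR adjusted p = 0.000105) and -0.71 ± 0.17 (0.00360). Stard4, a cytosolic sterol carrier, had 77.9 to 103 CPM in Control and 59.4 to 83.2 in Oxalate. It fell by 0.44 (adjusted p = 0.0108) and by 0.35 (adjusted p = 0.0427), and the call on alkali was lost without Control_late 1, 4 or 7 or Oxalate_late 30, 33, 5 or 8 (adjusted p up to 0.120).

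In the LXR arm one receptor and the efflux gene moved in opposite directions. Nr1h3, which encodes LXR alpha, had 51.6, 60.7, 55.6, 56.02 and 56.2 CPM in Control and 39.3, 35.6, 44.2, 41.3 and 22.2 CPM in Oxalate. On alkali it had 57.3, 56.03, 53.9, 52.3 and 54.9 CPM in Control_late and 50.3, 40.8, 30.1, 34.2 and 34.3 CPM in Oxalate_late. The groups did not overlap in either comparison, and the log2 fold changes were -0.62 ± 0.14 (edgeR adjusted p = 0.00153) and -0.53 ± 0.14 (0.00804). Nr1h2, which encodes LXR beta, had 44.8 to 72.04 CPM in Control and 44.1 to 77.8 in Oxalate, and intervals for the log2 fold change of -0.32 to 0.28 and -0.28 to 0.32.

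Abca1, which exports cholesterol from cells, had 36.8, 29.9, 38.2, 46.2 and 33.8 CPM in Control and 58.9, 46.5, 49.8, 57.1 and 77.7 CPM in Oxalate. All Oxalate libraries were above all Control libraries, with Oxalate 40 the highest, and the log2 fold change was 0.65 ± 0.16 (edgeR adjusted p = 0.00275). In Control_late it had 38.7, 24.6, 34.1, 26.1 and 27.7 CPM and in Oxalate_late 32.2, 35.3, 54.7, 43.6 and 47.03 CPM. These groups overlapped (0.49 ± 0.16, adjusted p = 0.0228), and the call was lost without Control_late 27, 4 or 7 or Oxalate_late 33 or 8 (adjusted p up to 0.0789). The macrophage marker sum was highest in Oxalate 40 too, at 4235 CPM; its part in the Abca1 level was not tested. Mylip, an LXR target that encodes a ubiquitin ligase, had 33.8 to 55.9 CPM in Control and 25.6 to 52.3 in Oxalate and gave -0.26 and 0.027 with wide intervals of -0.69 to 0.17 and -0.41 to 0.46.

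The libraries of a group were not alike. Counted against the Control range, 15 to 22 of the 29 genes lay below it in the 5 Oxalate libraries and 1 to 4 above it, beside 23.5% to 37.4% of all tested genes below and 26.5% to 38.4% above. Oxalate 40 had the most below, 22, with the lowest proximal tubule sum of the series, 7910 CPM. Against the Control_late range, 18 genes lay below in each of Oxalate_late 30, 33, 5 and 8, but only 5 in Oxalate_late 2. Over all tested genes the shares below the range were 30.8% to 38.6% in those 4 libraries and 15.1% in Oxalate_late 2. The sum of the 18 synthesis enzymes is weighted to Hmgcs1 and Cyp51, at 608 and 220 CPM in Oxalate_late 2. It was 1410 CPM in that library, inside the Control_late range of 1396 to 1555, and 891 to 1023 CPM in the other 4. Proximal tubule markers summed to 11156 to 20197 CPM in those 4 and 25155 in Oxalate_late 2. The part of tubule cell content in these differences was not tested.

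The alkali comparisons asked whether the pathway differed with treatment. In oxalate mice, Oxalate_late against Oxalate, edgeR called 0 of the 29 genes in either direction, where 4.08% of all tested genes were called, 1.76% higher and 2.33% lower. At an unadjusted p under 0.05 there were 7 (Fdps, Sqle, Tm7sf2, Msmo1, Ebp, Insig1 and Abca1), all lower, beside 20.5% of all tested genes in either direction. DESeq2 called 2 lower (Sqle and Insig1) and limma-voom 0, where they called 4.65% and 2.68% of all tested genes lower. The median log2 fold change was -0.056, beside 0.006 over all genes. No gene of the 29 had groups fully apart, beside 1.91% of all tested genes higher and 1.61% lower. This comparison shares its Oxalate and Oxalate_late libraries with the oxalate comparisons above.

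Sqle came nearest to a call. It averaged 66.8 ± 15.03 CPM in Oxalate and 46.7 ± 9.76 in Oxalate_late (SD, n = 5). The groups overlapped only through Oxalate_late 2, the highest of its group, and the log2 fold change was -0.52 ± 0.15 (edgeR adjusted p = 0.0593). It passed the test without Oxalate 40 or Oxalate_late 2, as Insig1 did without Oxalate 32. Abca1 gave -0.45 ± 0.16 (adjusted p = 0.119) and Fdps -0.41 ± 0.16 (adjusted p = 0.140). Without Oxalate_late 33, which carried fat cell transcripts, 4 genes were called lower (Fdps, Msmo1, Insig1 and Abca1), and without all 6 Adipoq libraries 3 were (Fdps, Msmo1 and Insig1). The share of all tested genes called lower rose too, from 2.33% to 3.64% and 5.1%. Hmgcs1 gave -0.017, with an interval of -0.33 to 0.29, and Lpin1 0.10, with an interval of -0.22 to 0.43.

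In control mice, Control_late against Control, edgeR called 0 of the 29 genes and 0.0% of all tested genes; DESeq2 and limma-voom also called 0 of the 29. At an unadjusted p under 0.05 there were 3 (Lss, Insig1 and Srebf1), all lower, beside 2.52% of all tested genes. The median was -0.13, beside -0.002 over all genes, and 24 of 29 fold changes were below 0. Groups were fully apart in 2 genes, Ebp and Insig1, both lower, beside 0.467% of all tested genes lower and 0.557% higher.

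Insig1, a brake on SREBP processing, had 36.1, 39.8, 44.4, 32.9 and 32.5 CPM in Control and 25.2, 18.8, 21.3, 27.2 and 18.5 CPM in Control_late. Every Control_late library was below every Control library. The log2 fold change was -0.74 ± 0.18, with an unadjusted p of 0.000505 that ranked 9 among the 15430 genes and an edgeR adjusted p of 0.866, so it was not called. In oxalate mice it had 42.7, 30.7, 25.7, 29.7 and 29.9 CPM in Oxalate and 25.6, 15.98, 32.2, 19.1 and 16.1 CPM in Oxalate_late, with a log2 fold change of -0.54 ± 0.18 (adjusted p = 0.0873). Those groups overlapped, with Oxalate_late 33 at 32.2 CPM the highest of its group. Ebp gave -0.22 ± 0.11 in control mice (adjusted p = 1) and Srebf1 -0.45 ± 0.18 (1).

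**Figure D4:**
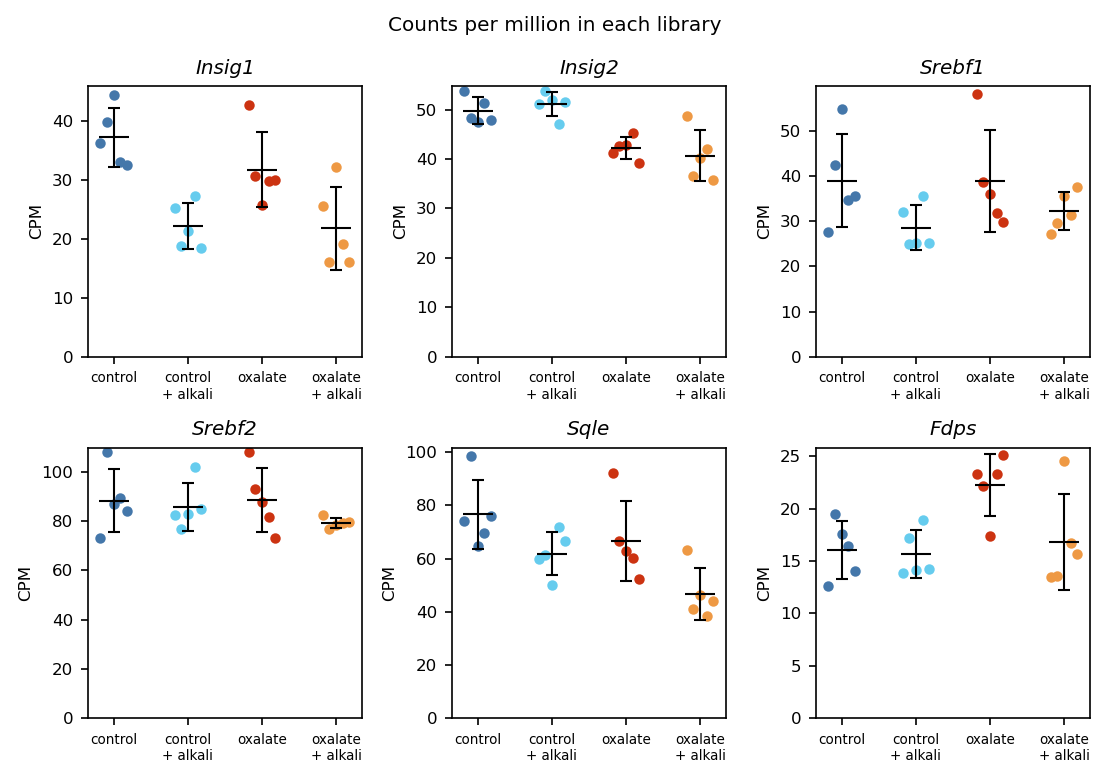
CPM of Insig1, Insig2, Srebf1, Srebf2, Sqle and Fdps in each library (points) with the group mean and SD (lines, n = 5). Insig1 lies at 18.5 to 27.2 CPM in Control_late, below its 32.5 to 44.4 CPM in Control, while the Srebf2 groups overlap.

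Whether the oxalate difference itself changed with alkali was tested as an interaction. By edgeR 0 of the 29 genes passed, 0 were at an unadjusted p under 0.05, and DESeq2 and limma-voom called 0; over all tested genes 0.0% were called by edgeR and 9.26% had an unadjusted p under 0.05. The median of the interaction was 0.063, beside 0.006 over all genes. The intervals were wide: -0.24 to 0.64 for Hmgcs1, -0.19 to 0.73 for Lpin1, -0.81 to 0.063 for Fdps and -0.51 to 1.04 for Idi1. The calls that stood in 1 oxalate comparison only (Fdps, Lss, Fdft1, Sqle and Tm7sf2) therefore do not show a difference between the comparisons.

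**Figure D5:**
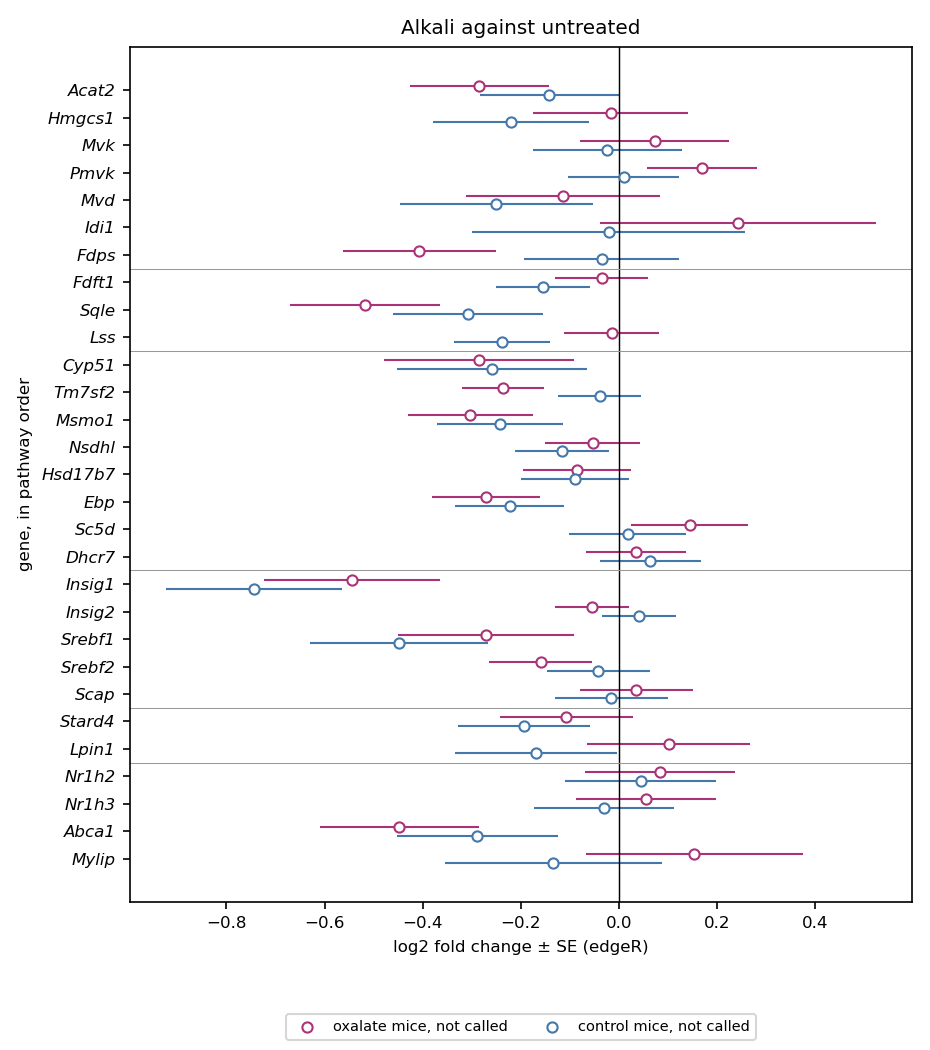
Log2 fold change ± SE (edgeR, n = 5 per group) of the 29 genes for alkali against untreated, in oxalate mice (purple) and control mice (blue), with open points since 0 of 29 were called in either. Insig1 lies farthest to the left in both, at -0.54 and -0.74.

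Genes that lie next to the pathway were read from 2 further lists. Of 8 genes of SREBP processing and sterol-regulated degradation, 5 were called lower and 0 higher without alkali, and 4 lower and 0 higher on alkali, beside 23.1% and 17.1% of all tested genes lower. Erlin2, part of the complex that targets sterol-regulated proteins for degradation, fell from 181 ± 14.5 to 133 ± 9.87 CPM (SD, n = 5; -0.45, edgeR adjusted p = 0.00153). Rnf145 and Mbtps1, the latter the protease that makes the first SREBP cut, gave -0.34 and -0.20 (adjusted p = 0.0148 and 0.0228); without Control 13 or 9 or Oxalate 3 Mbtps1 lost its call (adjusted p up to 0.0695), and total-count scaling turned it to 0.10. On alkali Erlin2 gave -0.43 (adjusted p = 0.00453), a call lost without the 6 Adipoq libraries (adjusted p = 0.0557). Without those libraries the list had 6 lower calls without alkali and 2 on alkali, beside 25.9% and 6.13% of all tested genes lower. Under total-count scaling this list had 1 higher and 0 lower calls without alkali and 3 lower on alkali. Over all tested genes that scaling called 48.6% higher and 8.48% lower without alkali, and 6.18% lower on alkali.

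Of 11 genes of the isoprenoid branches, which draw farnesyl diphosphate away from sterols, 7 were called lower without alkali and 6 on alkali, and 0 higher, beside 23.1% and 17.1% of all tested genes lower and 26.4% and 23.4% higher. Without the 6 Adipoq libraries 7 were lower without alkali and 2 on alkali, beside 25.9% and 6.13% of all tested genes lower. On alkali Dhdds, Nus1, Pdss2 and Rabggta then lost their calls (Dhdds and Nus1 were named after their values were seen). Pdss1 and Pdss2, which build the side chain of ubiquinone, gave -0.79 and -0.62 (edgeR adjusted p = 0.000255 and 0.00100). Rabggta, a subunit of the enzyme that prenylates Rab proteins, gave -0.73 (adjusted p = 0.000432). On alkali Coq2, also of ubiquinone synthesis, gave -0.42 (adjusted p = 0.00251). With total-count scaling the list had 3 higher and 3 lower calls without alkali and 0 and 3 on alkali. Over all tested genes that scaling called 48.6% higher and 8.48% lower without alkali, and 36.6% and 6.18% on alkali.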

How the data were processed

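The deposited files hold whole-number read counts per gene, made by the authors; per the submitters' processing notes, bcl2fastq 2.19, Trimmomatic, STAR 2.7.1, featureCounts and edgeR were used. Those notes name the human build GRCh38.p5, although the identifiers are mouse genes; the mouse annotation and the strand setting of the counting are not given in the sources used here. Symbols and exon lengths came from GENCODE M21 (GRCm38): 25587 of 25700 identifiers matched, and 113 did not. Counts were used as deposited in edgeR 4.0.16 (R 4.3.3): filterByExpr with a minimum count of 10 removed 10270 genes, and 1 robust quasi-likelihood model with TMM scaling and 4 group means was fitted to all 20 libraries (limma 3.58.1 and DESeq2 1.42.0 served as alternatives). Replicate numbers came from the titles, and CPM are TMM-scaled. Standard errors are the absolute log2 fold change over the square root of F, and intervals are 95%. The fit was also run on simulated counts in which few genes changed, in either direction. That run cannot speak to the choice between scalings. Alternatives were total-count scaling, no filter, a fit that is not robust, 2 groups only, leaving out the Adipoq libraries, and leaving out each library. In the text, named genes are all 29 members and, of each further list, up to 3 genes with the smallest p per comparison; 1 gene that this rule would name is not reported here. The members and lists were chosen with earlier results of these data known, so their counts are descriptions.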

Additional observations from a re-analysis of the deposited data

Results flagged for a closer look

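Each of the 29 genes was examined in each of the 4 groups, 116 sets of 5 libraries, for a library far from the other 4. There were 3 such values, fewer than chance alone gives, which is about 1 in 20 sets. Idi1 stood at 29.1 CPM in Oxalate_late 2, where the nearest library had 9.83 and the lowest 7.48. Pmvk stood at 15.3 CPM in Oxalate 39, above a nearest value of 12.6. Msmo1 stood at 37.2 CPM in Oxalate_late 33, above a nearest value of 27.9.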

How the results depend on the processing

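For the 29 genes, total-count scaling gave 7 higher and 5 lower calls and a median of 0.042 for oxalate without alkali. It gave 6 lower calls and a median of -0.068 on alkali, and 2 lower calls for alkali in oxalate mice. Over all tested genes it called 48.6% higher and 8.48% lower for oxalate without alkali, and 6.18% lower on alkali. For alkali in oxalate mice it called 1.92% of all tested genes lower. Under it 10 of the 29 genes turned upward without alkali, among them Lss (0.042), Tm7sf2 (0.26, called) and Insig2 (0.064), as did Mbtps1 (0.10) outside the 29; the median of all genes shifted by 0.30. Leaving out the 6 Adipoq libraries gave 0 higher and 4 lower calls for oxalate on alkali and 3 lower calls for alkali in oxalate mice. The test without a filter on low counts, and the fit of 2 groups alone, each gave 1 higher call for oxalate on alkali, since Fdft1 lost its call. Lower calls on alkali were 15 with no filter (Mvd and Idi1 lost, Dhcr7 gained) and 13 with 2 groups alone (Idi1, Tm7sf2 and Stard4 lost). Over all tested genes 13.7% were lower and 16.1% higher on alkali with no filter, and 17.4% and 22.1% with 2 groups alone. DESeq2 gave 2 lower calls for alkali in oxalate mice, beside 4.65% of all tested genes lower. The cause of these changes was not tested. Leaving out 1 library at a time gave, without alkali, 1 to 2 higher calls, 13 to 15 lower calls and medians of -0.34 to -0.24; on alkali, 0 to 2 higher calls, 9 to 17 lower calls and medians of -0.32 to -0.24. For alkali in oxalate mice it gave 0 to 4 lower calls and medians of -0.18 to -0.025, for alkali in control mice medians of -0.16 to -0.08, and for the interaction medians of -0.049 to 0.11. No paired analysis was possible because the groups share no replicate number. The spread between 5 libraries limits precision: standard errors reached 0.40 on the log2 scale, for the interaction of Idi1.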

Other observations

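Genes of fatty acid synthesis and of cholesterol storage and transport were also called in the oxalate comparisons. Of 15 fatty acid genes, 6 were lower and 1 higher without alkali and 4 lower and 1 higher on alkali, beside 23.1% and 17.1% of all tested genes lower and 26.4% and 23.4% higher. Acss2, which makes acetyl-CoA from acetate, fell from 385 ± 36.5 to 181 ± 44.6 CPM without alkali (SD, n = 5; log2 fold change -1.09, edgeR adjusted p = 6.54e-05). Gpam, which starts glycerolipid synthesis, gave -1.06 (6.85e-05) and the desaturase Fads2 -0.79 (0.000642). On alkali the desaturase Scd2 was higher at 0.77 (adjusted p = 0.000954), and Me1 and Acss2 were lower at -0.80 and -0.67 (0.00560 and 0.00711). In oxalate mice on alkali Mlxipl, a carbohydrate-responsive transcription factor, was higher (0.75, adjusted p = 0.0425) and the elongase Elovl5 lower (-0.26, 0.0425) than in untreated oxalate mice, calls kept in 9 and 7 of the 20 leave-one-out fits and lost, among others, without Oxalate_late 30 (adjusted p = 0.137 and 0.121). Both calls were also lost under total-count scaling (adjusted p = 0.0643 and 0.0919) and with 2 groups only (0.137 and 0.258). Several genes of this list are also abundant in fat cells, whose markers were high in 6 libraries. Without those 6 libraries the list had 2 higher and 6 lower calls without alkali and 1 and 1 on alkali. Over all tested genes the shares were then 25.5% higher and 25.9% lower without alkali, and 14.5% and 6.13% on alkali.

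Of 15 genes of cholesterol esters, lysosomal handling, oxysterols and efflux, 7 were higher and 4 lower without alkali, and 4 and 4 on alkali. Over all tested genes 26.4% were called higher and 23.1% lower without alkali, and 23.4% and 17.1% on alkali. Pltp, which transfers phospholipids between lipoproteins, rose from 8.03 ± 1.71 to 44.4 ± 15.8 CPM without alkali (2.47, edgeR adjusted p = 1.67e-06) and from 8.54 ± 2.17 to 29.6 ± 11.04 on alkali (1.80, 0.000151). Scarb1, a lipoprotein receptor, rose by 0.83 and 0.72 (4.15e-05 and 0.000490). Nceh1, a cholesterol ester hydrolase, was lower at -0.65 on alkali (0.00621), and Npc2, a lysosomal sterol carrier, was higher at 0.63 without alkali (0.000106). Without the 6 Adipoq libraries every call of this list without alkali was kept. On alkali Stard5, Ch25h, Cyp7b1 and Smpdl3a then lost their calls (edgeR adjusted p = 0.0547 to 0.0951). Pltp, Scarb1, Nceh1 and Abcg1 kept theirs (up to 0.0494). Stard5, Ch25h, Cyp7b1, Smpdl3a and Abcg1 were named after their values were seen. Over all tested genes 14.5% were then higher and 6.13% lower on alkali. In oxalate mice on alkali Npc2 and Soat1, which esterifies cholesterol, were lower than without alkali at -0.54 (0.00928) and -0.79 (0.0202); the Soat1 call was lost without Oxalate_late 30 (adjusted p = 0.0633), and both calls were lost with 2 groups only (0.12 and 0.19). The macrophage marker sum ran from 861 to 4235 CPM in Oxalate and 315 to 1131 in Oxalate_late, and its part in these values was not tested.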
